A study of Mus musculus with 12 samples.

Results

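The genes described here are 29 genes of the lysosome and of autophagy in ATDC5 cells, a mouse line used as a culture model of cartilage formation, measured after 10 min of heating. They were chosen by name, with earlier results of these data known. The list holds 13 genes for proteins of the lysosome, 14 genes of autophagy, and Tfeb and Tfe3, which encode transcription factors of lysosomal genes. They are 29 of the 54532 genes in the deposited count table, and all 29 were among the 14424 genes that passed a filter on low counts. RNA-seq libraries were made from cells held for 10 min at 44 °C or 40 °C, or at 37 °C, the culture temperature, with 4 biological replicates at each. All 12 libraries came from wild-type cells of the same line, labelled as cartilage progenitor cells and grown in high-sugar medium with serum. How long after the heating RNA was extracted is not given in the sources used here. By its title, the series asked what different temperatures do to chondrocyte growth.

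Lysosomes are acidic organelles in which hydrolases such as cathepsins and glycosidases break down proteins, glycans and lipids. Autophagy delivers cytoplasmic material to them in double-membraned vesicles: a kinase complex and a lipid kinase start the membrane, conjugation enzymes attach proteins of the LC3 and GABARAP family to its lipids, and receptors such as p62 tie cargo to those proteins. TFEB and TFE3 bind the CLEAR element, a short DNA sequence built around CACGTG that lies before many lysosomal and autophagy genes. Chondrocytes secrete and remodel large amounts of matrix, and lysosomal proteases and autophagy are known to take part in its turnover.

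Depth was even, with 16269026 to 19506705 counts per library, of which 99.86% to 99.9% fell in the genes tested. Replicates of 1 temperature varied mainly in 1 direction, an axis taken from the other genes' deviations from group means, which held 29.6% of the variance within groups. Library scores on it ran from -0.40 up to 1.47 for cells kept at 37 °C, from -1.46 up to 0.95 for those at 40 °C, and from -1.50 up to 1.07 for those at 44 °C. Of 10 cartilage progenitor markers 7 passed the filter. Runx2 and Sox9, transcription factors of the lineage, averaged 60.5 and 48.2 CPM (counts scaled to a common library size) at 44 °C, against 62.9 and 54.2 CPM at 37 °C. The cartilage matrix genes Col2a1 and Acan averaged near 1 to 2 CPM and Hapln1 had no count at any temperature. At 44 °C against 37 °C, 6 of the 7 were below 0, with a median log2 fold change of -0.42; Prg4, a lubricant gene of joints, fell by 0.86 (adjusted p = 0.0108) and the other 6 were not called. The 10 summed to 123 ± 17.9 CPM at 44 °C and 139 ± 14.4 CPM at 37 °C (SD, n = 4 each), and their part in the results below was not tested. Macrophages carry many lysosomes, and of 10 macrophage and blood cell markers only Cd68 and Mpeg1 passed the filter. Adgre1 and Tyrobp had no count in any library, and Ptprc averaged 0 CPM at 44 °C and 37 °C and 0.0158 CPM at 40 °C. The sum of the 10 ran from 31.6 up to 48.0 CPM in cells at 37 °C, from 24.5 up to 35.5 CPM after 40 °C, and from 20.8 up to 33.4 CPM after 44 °C. Most of this was Cd68, itself a gene for a lysosomal membrane protein, at 23.9 CPM at 44 °C and 31.5 CPM at 37 °C.

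Promoters of the members were read from RefSeq (GRCm38.p6) in windows of 250 bases before to 50 after a start site, and 24 of the 29 genes matched, with 29 windows. Both strands were searched for CACGTG, and for the longer core of the CLEAR element, which has a T directly before these 6 bases and an A directly after them. Both are palindromes, and every match of the longer form is also a match of the shorter. CACGTG stood in 8 of the 29 windows (27.6%), against 7.15% of all 32851 promoters in the table. It stood in 6 of 14 windows of lysosome genes (42.9%), in 2 of 10 of autophagy genes (20%) and in 0 of 5 of Tfeb and Tfe3. The longer form stood in windows of Ctsa, Ctsd and Mcoln1, 3 of 29 (10.3%), against 0.974% of all promoters. These counts describe letters in a window and do not show binding. The stretches of 250 bases before the start are printed below for 5 genes on which the results turn, with CACGTG in capitals. They are Ctsd at chr7:142387828-142388077 on the minus strand, Lamp1 at chr8:13158911-13159160 on the plus strand, Mcoln1 at chr8:3500269-3500518 on the plus strand, Npc2 at chr12:84773113-84773362 on the minus strand and Sqstm1 at chr11:50210821-50211070 on the minus strand. Ctsd fell at 44 °C and carries the longer form. Mcoln1 carries it and Lamp1 holds 4 copies of CACGTG, and neither passed the test of a difference at 44 °C. Npc2 and Sqstm1 fell and hold none.
Ctsd: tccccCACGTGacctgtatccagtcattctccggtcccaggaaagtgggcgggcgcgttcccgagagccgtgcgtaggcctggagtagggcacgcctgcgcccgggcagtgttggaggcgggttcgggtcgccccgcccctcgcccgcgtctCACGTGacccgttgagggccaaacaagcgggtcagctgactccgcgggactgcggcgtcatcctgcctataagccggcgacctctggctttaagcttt
Mcoln1: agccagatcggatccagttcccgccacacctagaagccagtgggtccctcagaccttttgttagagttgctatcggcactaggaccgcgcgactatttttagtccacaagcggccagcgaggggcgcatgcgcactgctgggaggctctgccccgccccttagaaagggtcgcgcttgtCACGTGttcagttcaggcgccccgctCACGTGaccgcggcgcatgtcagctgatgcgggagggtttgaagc
Lamp1: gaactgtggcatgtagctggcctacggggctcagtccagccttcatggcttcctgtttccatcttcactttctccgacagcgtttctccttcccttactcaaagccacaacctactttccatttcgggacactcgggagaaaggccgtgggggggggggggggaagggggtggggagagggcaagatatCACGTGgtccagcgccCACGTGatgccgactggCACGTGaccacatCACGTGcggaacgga
Npc2: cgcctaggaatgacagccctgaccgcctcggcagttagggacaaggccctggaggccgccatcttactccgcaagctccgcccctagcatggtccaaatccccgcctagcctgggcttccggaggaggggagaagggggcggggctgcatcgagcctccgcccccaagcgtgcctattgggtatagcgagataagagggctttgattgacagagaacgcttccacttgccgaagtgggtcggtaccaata
Sqstm1: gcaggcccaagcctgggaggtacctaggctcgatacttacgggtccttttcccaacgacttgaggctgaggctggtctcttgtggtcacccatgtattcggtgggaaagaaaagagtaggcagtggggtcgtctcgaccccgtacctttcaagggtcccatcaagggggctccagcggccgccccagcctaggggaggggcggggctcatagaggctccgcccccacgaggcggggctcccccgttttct
The longer form begins, with its CACGTG, 98 bases before the Ctsd start site and 45 before that of Mcoln1. Each also has another CACGTG, 245 and 71 bases before the start. In Lamp1 the 4 copies begin 61, 45, 28 and 15 bases before the start, and only 8 of the 32851 promoters hold 4 or more.

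After 10 min at 44 °C, 8 of the 10 genes for soluble lysosomal proteins described here were called lower than at 37 °C. Npc2, a cholesterol carrier, and Ctsd, a protease, showed the largest decreases of the 13. Of the 13 lysosome genes, 8 fell, 0 rose and 5 were not called, and the 8 were among the 10 genes for soluble proteins. Of the 3 genes for membrane proteins (Lamp1, Lamp2 and Mcoln1) 0 were called. A gene was called at a Benjamini-Hochberg adjusted p under 0.05 over all genes in edgeR's quasi-likelihood test, which called 13.7% of all genes, 7.11% as lower and 6.58% as higher. The log2 fold changes of the 13 genes ran between -0.57 and 0.08 with a median of -0.26, and 12 were below 0; over all genes the median was 0.00 and 50% were below 0. In 6 of the 13 every library at 44 °C lay below every library at 37 °C, as in 9.13% of all genes; groups stood apart in either direction in 17.8% of them. The genes were chosen with earlier results of these data known, so these shares are descriptions and not independent support. With the axis score as a covariate, 9 fell, and the median was -0.16. In these bulk libraries, fewer cells of a type and less RNA per cell cannot be told apart.

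**Figure D1:**
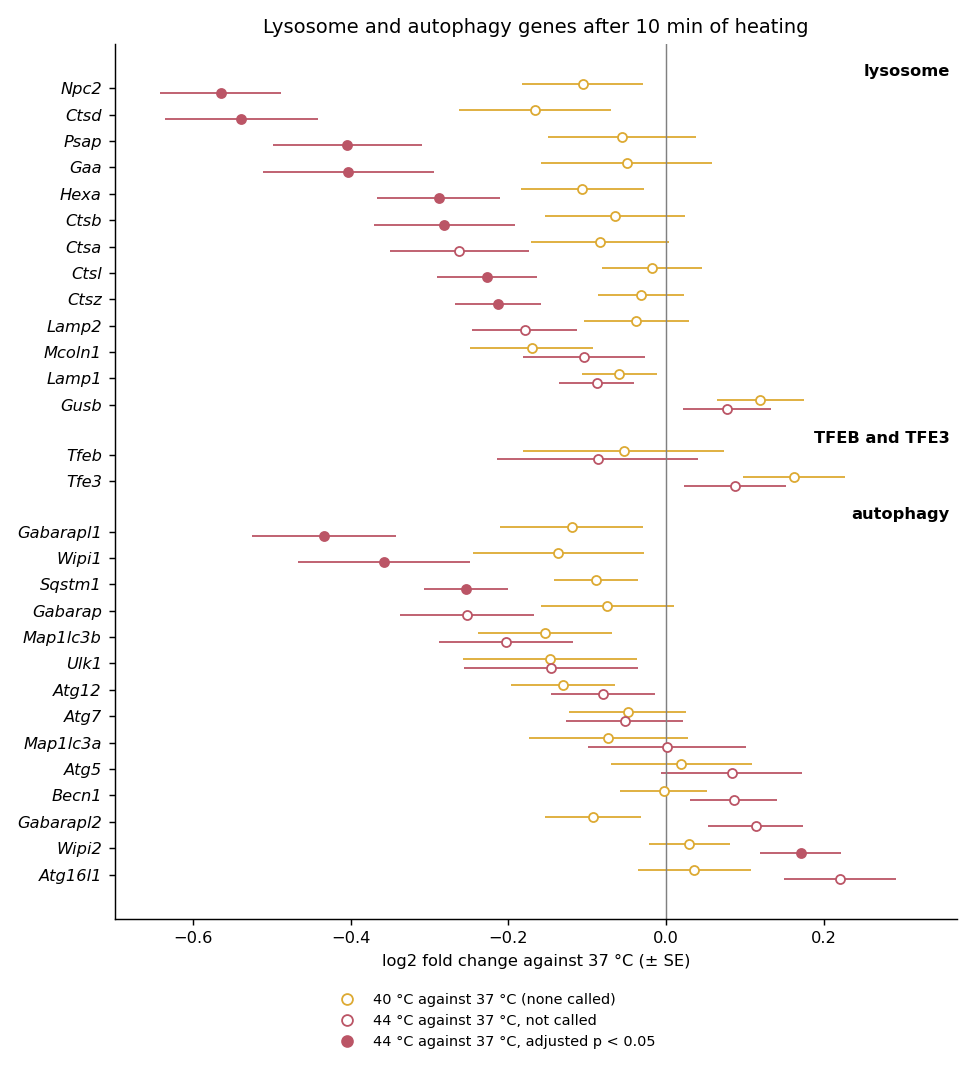
Log2 fold changes (± SE) of the 29 genes, grouped by role, for 44 °C against 37 °C (red) and 40 °C against 37 °C (yellow), with filled points for called genes; both comparisons use the same 4 libraries at 37 °C. At 44 °C 11 genes were called lower and 1 higher, and at 40 °C 0 were called.

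Npc2 and Psap, for proteins that help handle lipids in the lysosome, fell. Npc2 (ENSMUSG00000021242, chr12:84754562-84773152, minus strand, mm10), whose product carries cholesterol to the lysosomal membrane, had 905, 730.5, 865 and 846 CPM at 44 °C, against 1371, 1201, 1143 and 1235 CPM at 37 °C. Every library at 44 °C lay below the lowest at 37 °C. The log2 fold change was -0.57 ± 0.077 (SE), adjusted p = 0.000498, a level 32.4% lower. Psap (ENSMUSG00000004207, chr10:60277627-60302597, plus strand) encodes the precursor of the saposins, which help enzymes reach sphingolipids. It had 1102, 840.0, 1008 and 883 CPM at 44 °C, against 1443, 1214, 1157 and 1258 CPM at 37 °C. The groups again did not overlap, with replicate 1 at 44 °C closest to the 37 °C range, and the log2 fold change was -0.40 ± 0.094 (SE), adjusted p = 0.0127.

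Of the 5 cathepsins, 4 fell. Ctsd (ENSMUSG00000007891, chr7:142375911-142388038, minus strand), an aspartic protease, had 295, 219.5, 248 and 212 CPM at 44 °C, against 399.7, 342, 319 and 354 CPM at 37 °C. Its groups did not overlap, and its log2 fold change was -0.54 ± 0.097 (SE), adjusted p = 0.00289, a level 31.2% lower. Ctsl (ENSMUSG00000021477, chr13:64359337-64370890, minus strand), a cysteine protease, had 2072, 1773, 2113 and 1978 CPM at 44 °C, against 2526, 2269, 2200.4 and 2297 CPM at 37 °C. All 4 libraries at 44 °C were below all 4 at 37 °C, with a log2 fold change of -0.23 ± 0.063 (SE), adjusted p = 0.0297. Ctsz (ENSMUSG00000016256, chr2:174427493-174439039, minus strand), a cysteine carboxypeptidase, had 298, 264, 279 and 279.8 CPM at 44 °C, against 341, 325, 311 and 322 CPM at 37 °C. The groups did not overlap and the log2 fold change was -0.21 ± 0.055 (SE), adjusted p = 0.0204. The gene Nelfcd overlaps Ctsz on the opposite strand and had 25.2% as many counts, and whether counting used the strand is not given in the sources used here. Ctsb (ENSMUSG00000021939, chr14:63122462-63145923, plus strand), another cysteine protease, had 775, 594, 698 and 609.6 CPM at 44 °C, against 899, 799, 764 and 791 CPM at 37 °C. Replicate 1 at 44 °C lay inside the range at 37 °C, and the log2 fold change of -0.28 ± 0.089 (SE), adjusted p = 0.0491 was close to the threshold. Ctsb overlaps Fdft1, on the opposite strand, which had 9.1% as many counts. Ctsa, the protective protein of neuraminidase and galactosidase, averaged 89.5 ± 10.1 CPM at 44 °C and 107 ± 8.64 CPM at 37 °C (SD, n = 4 each), and its log2 fold change of -0.26 ± 0.088 (SE), adjusted p = 0.0616 was not called.

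Of the 3 glycosidases, 2 fell. Gaa (ENSMUSG00000025579, chr11:119267887-119285454, plus strand), which breaks down glycogen, had 217, 168, 176 and 150.1 CPM at 44 °C, against 261, 224, 216 and 239 CPM at 37 °C. Its highest library at 44 °C was just above its lowest at 37 °C, and the log2 fold change was -0.40 ± 0.11 (SE), adjusted p = 0.0257. Hexa (ENSMUSG00000025232, chr9:59539540-59565109, plus strand), the alpha subunit of the enzyme that trims gangliosides, had 108, 92.2, 101 and 92.6 CPM at 44 °C, against 137, 112, 110.4 and 122 CPM at 37 °C. The groups did not overlap, and the log2 fold change was -0.29 ± 0.078 (SE), adjusted p = 0.0257. Gusb, which cuts glucuronic acid from glycosaminoglycans, was the one lysosome gene above 0, at 87.0 ± 1.36 CPM at 44 °C and 82.5 ± 4.07 CPM at 37 °C (SD, n = 4 each), a log2 fold change of 0.08 ± 0.055 (SE), adjusted p = 0.368.

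The 3 membrane genes were not called in this fit. Lamp1 (ENSMUSG00000031447, chr8:13159161-13175338, plus strand), a heavily glycosylated protein of the lysosomal membrane, had 553, 535, 582 and 525 CPM at 44 °C, against 606, 585, 565 and 577 CPM at 37 °C. The ranges overlapped, and the log2 fold change was -0.09 ± 0.047 (SE), adjusted p = 0.224. The log2 fold change was -0.18 ± 0.067 (SE), adjusted p = 0.0852 for Lamp2, its relative, and -0.10 ± 0.078 (SE), adjusted p = 0.388 for Mcoln1, a calcium channel of the membrane. Whether the soluble genes differ from the 3 membrane genes as a class was not tested.

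The transcription factor genes were not called in any comparison. Tfeb (ENSMUSG00000023990, chr17:47737030-47792419, plus strand) had 16.4, 9.78, 13.1 and 11.9 CPM at 44 °C, against 13.7, 14.3, 13.3 and 13.2 CPM at 37 °C. The 4 libraries at 44 °C spread around those at 37 °C, and the log2 fold change was -0.09 ± 0.13 (SE), adjusted p = 0.684. Tfe3 (ENSMUSG00000000134, chrX:7762560-7775202, plus strand) had 41.8, 48.3, 41.0 and 42.0 CPM at 44 °C, against 41.9, 40.1, 41.8 and 39.0 CPM at 37 °C, with replicate 2 at 44 °C above the rest and the other 3 inside or close to the range at 37 °C. Its log2 fold change was 0.09 ± 0.065 (SE), adjusted p = 0.382. Both factors are known to be controlled through their location in the cell, which mRNA levels do not measure.

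Of the 14 autophagy genes, 3 fell at 44 °C (Sqstm1, Gabarapl1 and Wipi1), Wipi2 rose and 10 were not called, so that 21.4% were lower and 7.14% higher, against 7.11% and 6.58% of all genes; 1 higher gene of 14 is near that background. The log2 fold changes ran between -0.43 and 0.22 with a median of -0.07, and 8 were below 0. The groups did not overlap for 4 genes: Sqstm1 and Gabarapl1 were lower in every library at 44 °C, Wipi2 and Atg16l1 higher, against 9.13% and 8.62% of all genes. Scaled to library totals in place of TMM (trimmed mean of M values), 2 of the 14 fell and 2 rose. With no filter 4 fell and 0 rose, and with only these groups in the fit 3 fell and 0 rose.

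The cargo receptor and 1 of the 5 genes of the LC3 and GABARAP family fell. Sqstm1 (ENSMUSG00000015837, chr11:50199366-50210827, minus strand), which encodes p62, had 354, 327, 340.2 and 323 CPM at 44 °C, against 419, 399.8, 377 and 405 CPM at 37 °C. The groups did not overlap and the spread within each was small, and the log2 fold change was -0.25 ± 0.054 (SE), adjusted p = 0.00768. Gabarapl1 (ENSMUSG00000030161, chr6:129533160-129542346, plus strand) had 89.8, 66.7, 77.7 and 72.3 CPM at 44 °C, against 113, 107, 92.5 and 102 CPM at 37 °C. Here too the groups stood apart, with a log2 fold change of -0.43 ± 0.092 (SE), adjusted p = 0.00747. The other 4 family members were not called. Map1lc3b (ENSMUSG00000031812, chr8:121590361-121598760, plus strand), the LC3 gene most used as an autophagy marker, had 80.6, 68.9, 83.7 and 72.7 CPM at 44 °C, against 98.8, 83.2, 81.6 and 88.3 CPM at 37 °C. The ranges overlapped and the log2 fold change was -0.20 ± 0.086 (SE), adjusted p = 0.123. Zcchc14, which overlaps Map1lc3b on the opposite strand, had 138% as many counts, so the level of Map1lc3b is uncertain if strand was not used in counting. The log2 fold change was -0.25 (adjusted p = 0.0612) for Gabarap, 0.00 (adjusted p = 0.996) for Map1lc3a and 0.11 (adjusted p = 0.219) for Gabarapl2, so the family held values on both sides of 0.

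**Figure D2:**
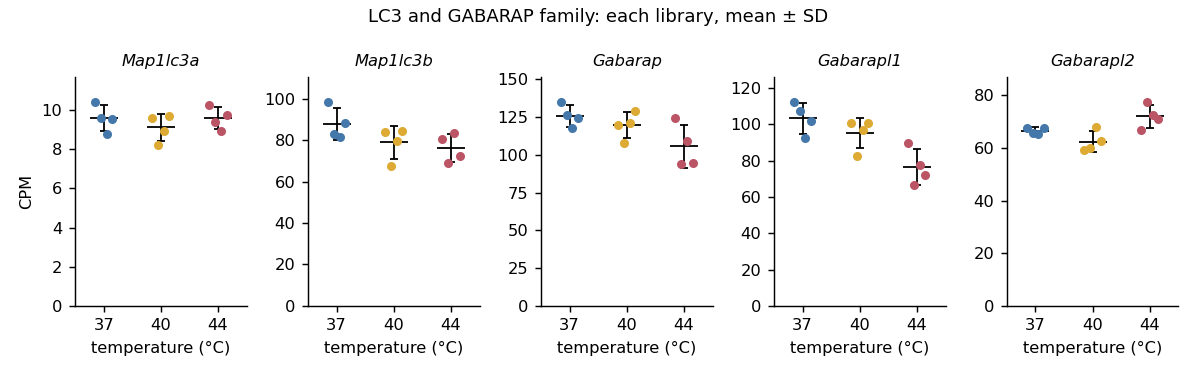
CPM of the 5 genes of the LC3 and GABARAP family in each library (points) with mean ± SD (bars, n = 4) at 37, 40 and 44 °C; each panel has its own axis, which starts at 0. Gabarapl1 lies between 66.7 and 89.8 CPM at 44 °C, below its 4 libraries at 37 °C, and the other 4 genes overlap.

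The WIPI genes, whose products bind the lipid that marks the growing autophagosome, went opposite ways. Wipi1 (ENSMUSG00000041895, chr11:109573331-109611967, minus strand) had 80.7, 57.5, 72.1 and 60.8 CPM at 44 °C, against 95.4, 85.1, 75.1 and 91.8 CPM at 37 °C. Replicate 1 at 44 °C was above the lowest library at 37 °C, and the log2 fold change was -0.36 ± 0.11 (SE), adjusted p = 0.0426. Wipi2 (ENSMUSG00000029578, chr5:142627698-142670588, plus strand), which recruits the ATG16L1 complex, had 117, 128, 119 and 121 CPM at 44 °C, against 109, 102, 106 and 113 CPM at 37 °C. Each heated library exceeded the highest one at 37 °C, and the log2 fold change was 0.17 ± 0.051 (SE), adjusted p = 0.0398. Of the 12 fits that left out 1 library, Wipi1 was called in 4 and Wipi2 in 3, with the direction kept in each. Atg16l1, the partner that Wipi2 recruits, averaged 40.7 ± 2.04 CPM at 44 °C and 34.9 ± 1 CPM at 37 °C (SD, n = 4 each); its groups did not overlap, but its log2 fold change of 0.22 ± 0.071 (SE), adjusted p = 0.0528 was not called. The rest of the conjugation machinery and the initiation genes stayed closer to 0. The log2 fold change was 0.08 (adjusted p = 0.562) for Atg5 and -0.08 (adjusted p = 0.439) for Atg12, which are joined to each other, and -0.05 (adjusted p = 0.67) for Atg7, the enzyme that activates both conjugation systems. Ulk1, the initiating kinase, had -0.15 (adjusted p = 0.393), and Becn1, of the lipid kinase complex, had 0.09 (adjusted p = 0.308).

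**Figure D3:**
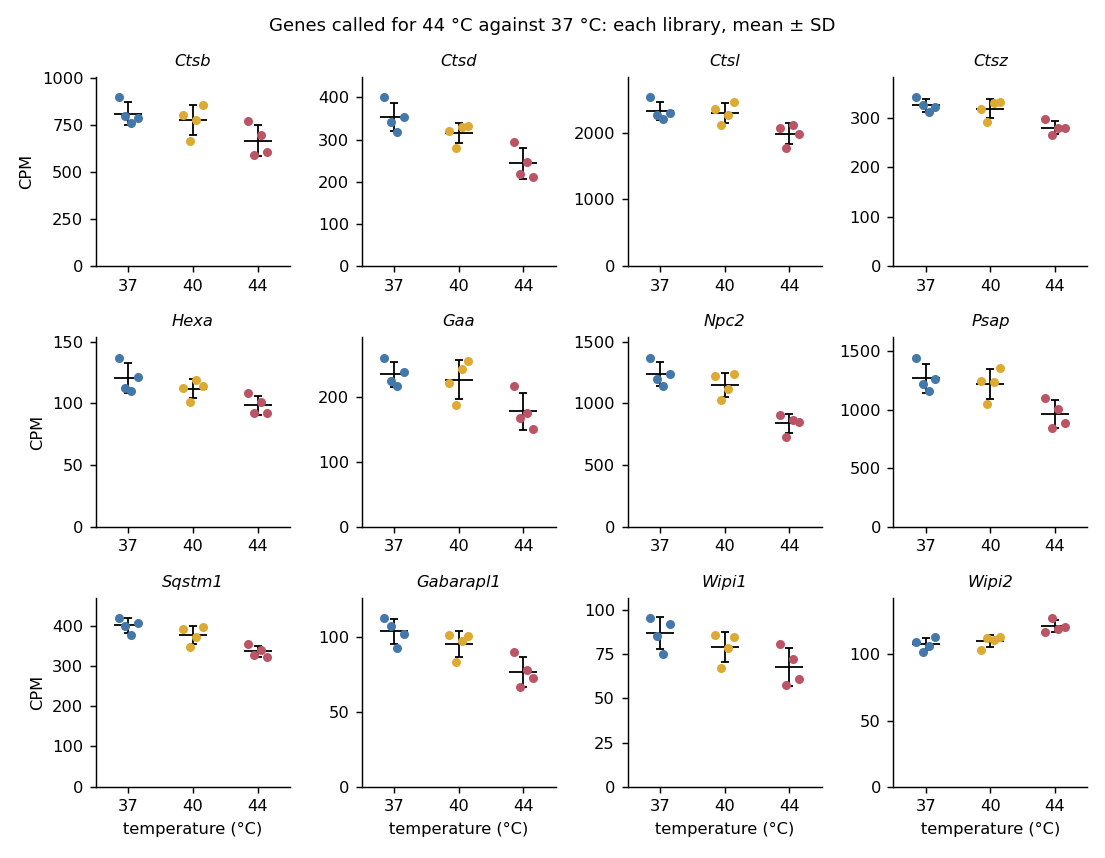
CPM of the 12 genes called for 44 °C against 37 °C, in each library (points) with mean ± SD (bars, n = 4) at 37, 40 and 44 °C; each panel has its own axis, which starts at 0. The means at 40 °C lie between the other means for all 12 genes, and Npc2, Ctsd, Psap, Hexa, Ctsl, Ctsz, Sqstm1 and Gabarapl1 are lower in every library at 44 °C than at 37 °C.

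Per kilobase of gene length, which makes genes comparable, the levels at 37 °C spread widely: Psap stood at 462 CPM per kb, Ctsl at 358, Npc2 at 228, Ctsz at 225 and Lamp1 at 218, and Tfeb was lowest at 2.4. The genes that fell at 44 °C lay in the upper part of this order, between Psap and Wipi1, which ranked 17 at 19.7 CPM per kb at 37 °C. That part also holds Lamp1, Gabarap, Gabarapl2, Ctsa, Atg12 and Lamp2, which were not called. None of the members below Wipi1 fell, and Wipi2, which rose, stood at 10.2. Of the 8 genes with CACGTG in a promoter window 3 fell, and of the 16 matched genes without it 7 fell and 1 rose. Their median log2 fold changes at 44 °C were -0.17 with the motif and -0.21 without it. These are descriptions over 24 genes, with no test.

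At 40 °C no gene of the table was called, and so 0 of the 29 members (0% of all genes called). Without adjustment 752 genes (5.21%) had p under 0.05, among them 3 of the 29, and DESeq2 called 4 genes of the table and none of the members. The lysosome genes had a median log2 fold change of -0.06 and the autophagy genes of -0.08, with 12 of 13 and 11 of 14 below 0, against 50.3% of all genes. The lysosome median was -0.01 without replicate 1 at 37 °C, 0.00 without replicate 2 at 40 °C, -0.11 without replicate 4 at 40 °C and -0.01 with the axis score as a covariate, under which Ctsl, Gaa and Psap were above 0. For the 12 genes called at 44 °C, the log2 fold changes at 40 °C were between -0.17 (Ctsd) and 0.03 (Wipi2), with the sign seen at 44 °C in each of these fitted values. Both comparisons use the same 37 °C libraries, so they are not independent. Npc2 averaged 1149.9 ± 99.4 CPM at 40 °C and 1238 ± 96.8 CPM at 37 °C (SD, n = 4 each), with a log2 fold change of -0.11 ± 0.076 (SE), adjusted p = 0.823. Tfe3 was the one member whose groups did not overlap, as in 3.83% of all genes (2.23% lower, 1.61% higher): it had 44.9, 47.7, 44.3 and 45.4 CPM at 40 °C, against 41.9, 40.1, 41.8 and 39.0 CPM at 37 °C. Its log2 fold change was 0.16 ± 0.065 (SE), adjusted p = 0.823.

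Between the heated groups, Npc2, Ctsd and Psap were lower at 44 °C than at 40 °C, and the other 26 members were not called. In this comparison 5.02% of all genes were called, 3.14% as lower (453) and 1.88% as higher (271), and 355 and 396 when scaled to library totals. Npc2 had 905, 730.5, 865 and 846 CPM at 44 °C, against 1221, 1026, 1114 and 1239 CPM at 40 °C. These groups did not overlap, as in 10.7% of all genes (5.44% lower, 5.28% higher), and the log2 fold change was -0.46 ± 0.077 (SE), adjusted p = 0.0032. Ctsd had 320.5, 279.6, 329 and 332 CPM at 40 °C, and Psap 1243, 1045, 1237 and 1357 CPM. In both the lowest library at 40 °C lay below replicate 1 at 44 °C, and the log2 fold changes for 44 °C against 40 °C were -0.37 ± 0.097 (SE), adjusted p = 0.0378 and -0.35 ± 0.094 (SE), adjusted p = 0.0454. The lysosome genes had a median of -0.18 with 12 of 13 below 0, against 47.8% of all genes, and the autophagy genes a median of 0.03. No autophagy gene was called by edgeR. At unadjusted p under 0.05 there were 5, against 20.1% of all genes, and DESeq2 called 3, of 1220 genes in all. Wipi2 had 103, 113, 111 and 113 CPM at 40 °C, below all 4 libraries at 44 °C, with a log2 fold change of 0.14 ± 0.051 (SE), adjusted p = 0.134. The calls of Ctsd and Psap were lost in 8 of the 12 fits that left out 1 library, and when library totals replaced TMM scaling. The number of lysosome genes called was 1 without replicate 2 or 4 at 37 °C, 1, 3 or 4 at 40 °C, or 2, 3 or 4 at 44 °C, 6 without replicate 2 at 40 °C, and 7 without replicate 1 at 44 °C. The number of autophagy genes called was 2, 1 and 4 without replicate 2 at 40 °C, 3 at 40 °C and 1 at 44 °C, and 0 without any of the other 9.

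The summed levels of the lysosome and of the autophagy genes were lower on average at 44 °C than at 37 °C. They also moved with the axis along which replicates differ. The 13 lysosome genes summed to 6763, 5603, 6504 and 5971 CPM at 44 °C, against 8462, 7516, 7220.3 and 7657 CPM at 37 °C, and the groups did not overlap. Their sums at 40 °C, 7589, 6654, 7441 and 7993 CPM, overlapped both other groups. The 14 autophagy genes summed to 1217, 1122, 1177 and 1103 CPM at 44 °C, against 1339.7, 1275, 1198 and 1289 CPM at 37 °C, with replicate 1 at 44 °C inside the range at 37 °C. At each temperature the library with the highest score on the axis had the highest sum of both kinds, and the libraries with the lowest scores had low sums. Replicates 2 and 4 at 44 °C, at -1.50 and -1.37, scored lowest of that group. Replicate 1 at 44 °C, at 1.07, scored above 3 of the libraries at 37 °C and had a lower lysosome sum than each of them. This is 1 library. Group means of the score stepped down with heating: 0.42 (37 °C), -0.01 (40 °C), -0.41 (44 °C), with SDs of 0.78, 1.03 and 1.24. Score and temperature are therefore partly tied in these libraries. Adding the score to the fit moved the lysosome median for 44 °C against 37 °C from -0.26 to -0.16. The part of this axis in the result was not tested beyond the fit with the score as a covariate, given above, in which the score comes from the same libraries.

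**Figure D4:**
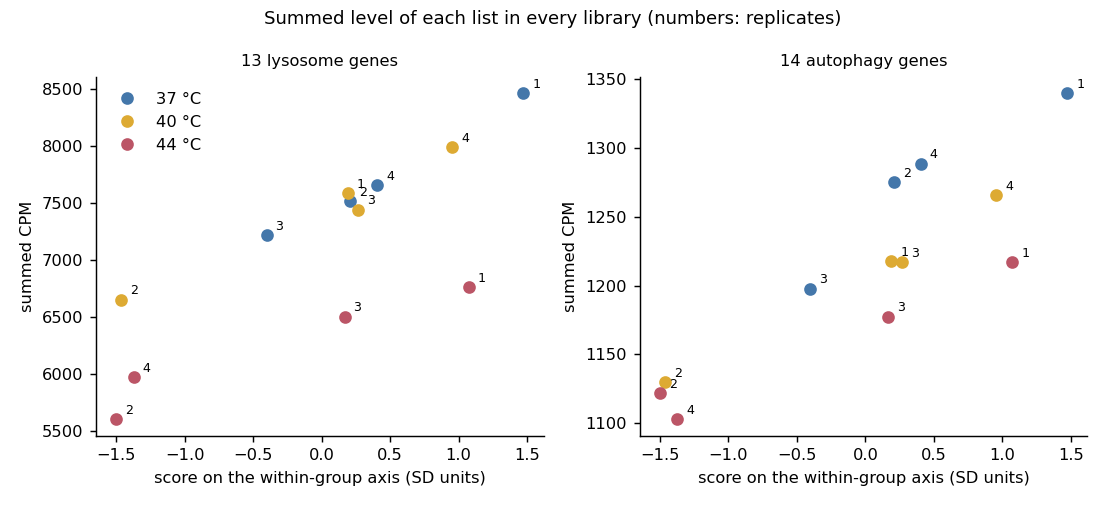
Summed CPM of the 13 lysosome genes (left) and the 14 autophagy genes (right) in each library against its score on the axis of differences within groups, which was computed without these genes; colours give the temperature and numbers the replicate. The 4 lysosome sums at 44 °C, 5603 to 6763 CPM, lie below all 4 at 37 °C, and the sums increase with the score within each temperature apart from small inversions.

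Mpeg1, a macrophage gene whose pore-forming product acts in endosomes and lysosomes, was the one macrophage marker called: it averaged 1.86 ± 0.513 CPM at 44 °C and 5.33 ± 1.25 CPM at 37 °C (SD, n = 4 each), a log2 fold change of -1.52 (adjusted p = 0.00132). The summed macrophage markers were highest, as the lysosome genes were, in the library with the highest axis score at each temperature. The part of other cells in the lysosome result was not tested.

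Of the 12 members called at 44 °C, 5 (Npc2, Ctsd, Psap, Sqstm1 and Gabarapl1) were called in each of the 12 fits that left out 1 library, and all 12 kept their direction in the 19 other fits. The number of lysosome genes called was 3, 5 or 4 without replicate 1, 2 or 4 at 37 °C and 3 or 4 without replicate 2 or 4 at 44 °C. It was 7 to 9 without any of the other 7 libraries. The number of autophagy genes called was 2 without replicate 1, 2 or 4 at 37 °C, 3 at 40 °C, or 2, 3 or 4 at 44 °C, and 3 to 6 otherwise. Gaa, Hexa, Ctsl and Ctsz each lost their call in 3 to 5 of these fits, Ctsb and Wipi1 in 8, and Wipi2 in 9. Some members not called gained a call elsewhere: Ctsa, Gabarap and Atg16l1 with DESeq2, with the axis covariate and in other fits (6, 6 and 7 of the 19), and Lamp2 in 2, 1 of them without replicate 3 at 44 °C. Their adjusted p ranged between 0.00999 and 0.179 for Ctsa, 0.00586 and 0.175 for Gabarap, 0.0247 and 0.144 for Atg16l1, and 0.0391 and 0.236 for Lamp2. A joint test of the 3 temperatures called 8.21% of all genes and 6 of the 29 members: Npc2, Ctsd, Psap, Ctsz, Sqstm1 and Gabarapl1, with adjusted p between 0.00116 (Npc2) and 0.0428 (Ctsz).

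Beyond the 29 genes, other lists of the pathway were counted in the same way. Of 38 other lysosomal hydrolases and activators, 9 fell and 1 rose at 44 °C, against 7.11% and 6.58% of all genes, with a median log2 fold change of -0.21. Gla, which cuts galactose from glycolipids, fell by 0.49 on the log2 scale (adjusted p = 0.00416), and the beta-galactosidase gene Glb1 by 0.59 (adjusted p = 0.00456). Ids, an enzyme of glycosaminoglycan breakdown, rose by 0.30 (adjusted p = 0.01). Of 28 other membrane and sorting genes 4 fell and 1 rose, with a median of -0.15. Grn, the progranulin gene, fell by 0.68 (adjusted p = 0.00323), to 295 ± 57.3 CPM at 44 °C, against 472 ± 54.3 CPM at 37 °C (SD, n = 4 each). Laptm4a, of the lysosomal membrane, fell by 0.23 (adjusted p = 0.0112), and Gnptab, which makes the mannose 6-phosphate tag that sorts hydrolases to lysosomes, rose by 0.22 (adjusted p = 0.0202). Of the 17 genes of the vacuolar ATPase, the proton pump, 2 fell and 1 rose, near the background. Its accessory subunit Atp6ap1 fell by 0.28 (adjusted p = 0.00315) and the subunit Tcirg1 by 0.23 (adjusted p = 0.0459), and Atp6v1c1 rose by 0.18 (adjusted p = 0.0435).

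The other autophagy lists had few calls, to be read against 7.11% of all genes called lower and 6.58% called higher. Of 19 other initiation and membrane genes, Vmp1 fell by 0.21 (adjusted p = 0.0117) and Wdr45b, a relative of the WIPI genes, rose by 0.22 (adjusted p = 0.0174). Of 13 other receptors and adaptors, the mitophagy receptor Bnip3l fell by 0.35 (adjusted p = 0.047) and Wdfy3, an adaptor for aggregates, rose by 0.20 (adjusted p = 0.0252). No gene was called by edgeR among 7 other conjugation genes and 14 fusion genes, with 1 in each list at unadjusted p under 0.05 and none called by DESeq2. Over all genes 30.9% had unadjusted p under 0.05 at 44 °C against 37 °C. Of 26 genes that regulate mTORC1 and TFEB at the lysosome 4 fell (15.4%, against 7.11% of all genes) and 0 rose, with a median of 0.02. They include Ppp3ca, a catalytic subunit of calcineurin, the phosphatase that acts on TFEB, which fell by 0.30 (adjusted p = 0.0142). Lamtor4 and Lamtor2, subunits of the Ragulator complex that anchors mTORC1, fell by 0.43 (adjusted p = 0.027) and 0.28 (adjusted p = 0.0334). At 40 °C against 37 °C no gene of these 8 lists was called by edgeR or DESeq2, with 6 at unadjusted p under 0.05, against 5.21% of all genes. At 44 °C against 40 °C, 2 of 38 hydrolase genes fell and 1 rose, and 3 of 28 membrane and sorting genes fell. Of the 17 ATPase genes 1 fell and 1 rose. Of all genes 3.14% were called lower and 1.88% higher in this comparison. In the other 5 lists edgeR and DESeq2 called none, and 8 genes had unadjusted p under 0.05, against 20.1% of all genes.

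**Figure D5:**
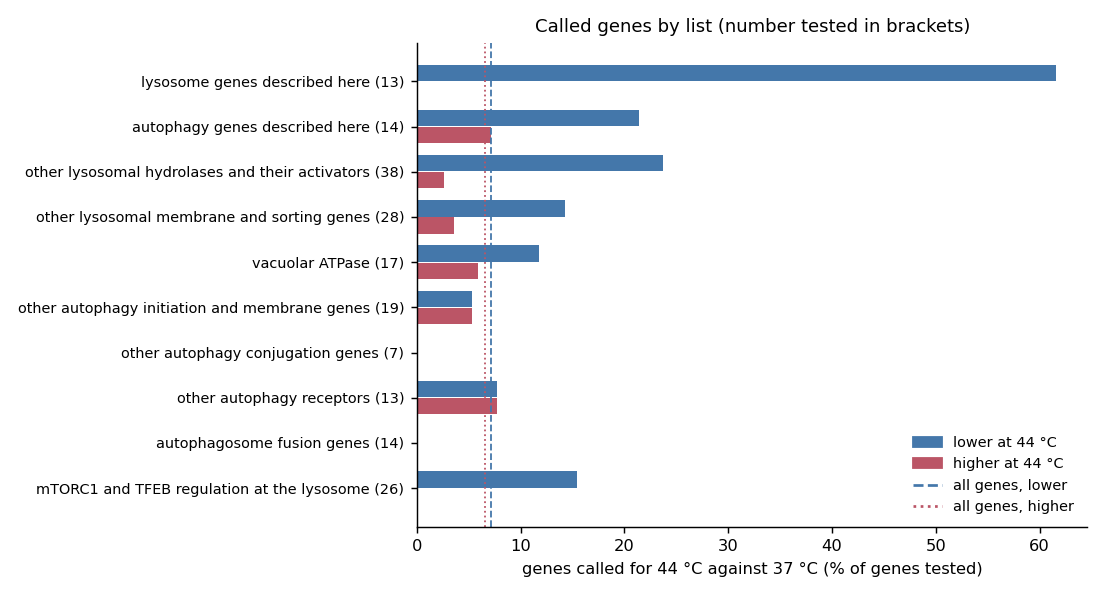
Share of the tested genes of each list called lower (blue) or higher (red) at 44 °C against 37 °C, with the number tested in brackets and the shares of all genes as lines (7.11% lower, 6.58% higher). The lysosome genes described here (8 of 13) and the other hydrolases (9 of 38) lie furthest above the line for lower genes, and the conjugation and fusion lists have none.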

How the data were processed

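Gene expression was measured by poly(A) RNA-seq in 12 libraries, 4 each at 37, 40 and 44 °C. The table deposited by the authors holds raw counts of genes, with a column for every library. The submitters' processing notes name fastp, HISAT2 2.0.5, StringTie 1.3.3b, featureCounts 1.5.0-p3 and the build mm10, without role or order. Strand use in counting is not given in the sources used here. Gene symbols, coordinates and lengths are those of the deposited table, which the authors deposited with a length column.

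Tests used edgeR 4.0.16 under R 4.3.3: filterByExpr (minimum count 10, minimum total 15) left 14424 genes, libraries were scaled by TMM, and 1 quasi-likelihood model of the 3 temperatures took in the 12 libraries (common biological coefficient of variation 0.102). P-values are two-sided and adjusted by Benjamini-Hochberg over all 14424 genes, with a threshold of 0.05. Each SE is the size of the log2 fold change over the root of its F. CPM uses TMM-scaled library sizes, also for summed levels; a count of 0 allows up to 3 counts, 0.154 to 0.184 CPM, covering counting error only. Chi-square statistics per gene lay between 2.85 and 20.9 for replicate pairs, more than counting error alone gives. They cannot show whether the cultures were separate. Every library counted as a separate replicate. Replicate numbers were not taken as pairing the samples (3 of 12 same-number correlations over 0.1).

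The members and lists were chosen with earlier results of these data known. Full values are given for members called in any comparison and for Lamp1, Tfeb, Tfe3, Sqstm1 and Map1lc3b, and for up to 3 called genes of each other list by smallest p; Cd68, Grn's CPM and the markers Runx2, Sox9, Col2a1, Acan, Hapln1, Mpeg1, Ptprc, Adgre1 and Tyrobp were added as a check of cell type. Alternatives were DESeq2 1.42.0, RLE size factors, library totals, no filter, only the groups compared, a threshold of 0.01, a replicate block, a covariate for the axis along which replicates varied, and leaving out each library. The steps were tested on simulated data.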

Additional observations from a re-analysis of the deposited data

Results flagged for a closer look

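In 2 of 87 groups of 4 libraries (29 genes at 3 temperatures), 1 library lay far from the other 3 by Dixon's ratio at the 95% level; chance alone gives about 4.35. Tfe3 had 48.3 CPM in replicate 2 at 44 °C, with the other 3 libraries between 41.0 and 42.0 CPM. Ulk1, the kinase that starts autophagy, had 55.0 CPM in replicate 4 at 40 °C, with the others between 47.2 and 47.9 CPM. Neither gene was called in any comparison.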

How the results depend on the processing

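All 12 members called for 44 °C against 37 °C kept their direction in the 19 other fits, and the medians of the lysosome and autophagy genes stayed below 0 in them. For 40 °C against 37 °C the lysosome median ran between -0.109 and 0.0013 without 1 library, and for 44 °C against 40 °C the autophagy median between -0.0096 and 0.053. For 44 °C against 37 °C, a threshold of 0.01 left 630 genes in all, 2 lysosome and 2 autophagy genes, and the axis covariate gave 3164 genes in all. Leaving out 1 library gave 979 to 3355 genes, 3 to 9 lysosome and 2 to 6 autophagy genes.

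For 44 °C against 40 °C (724 genes, 3 lysosome, 0 autophagy), DESeq2 called 1220 genes, 6 lysosome and 3 autophagy genes. The axis covariate gave 2552, 9 and 6. Library totals gave 1 lysosome and 1 autophagy gene, and no filter 5 and 1. A fit of only these groups gave 334 genes and 1 lysosome gene, and a threshold of 0.01 gave 270 and 1. Leaving out 1 library gave 394 to 1265 genes, 1 to 7 lysosome and 0 to 4 autophagy genes. For 40 °C against 37 °C, DESeq2 called 4 genes, no filter 13, the axis covariate 11, and leaving out 1 library 0 to 1. The joint test of the 3 temperatures called 1184 genes, 2065 with DESeq2, 1784 with no filter, 3038 with the axis covariate, 425 at a threshold of 0.01, and 562 to 2125 without 1 library. The causes of these moves were not tested.

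Replicate numbers are shared between the groups, but most same-numbered libraries did not deviate together: of 12 correlations, between -0.207 and 0.366, 3 were over 0.1 (number 1 at 44 °C and 37 °C, number 2 at 44 °C and 40 °C and at 44 °C and 37 °C). As a hint from the data, 6 of 12 libraries correlated best with their own number. With a replicate block, 2557 genes, 10 lysosome and 6 autophagy genes were called for 44 °C against 37 °C, Ctsa, Lamp2, Gabarap and Atg16l1 being added, and 901, 5 and 1 for 44 °C against 40 °C; for 40 °C against 37 °C the count stayed at 0, and in the joint test it was 1656.

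Signs changed 57 times, in 14 of 87 single-gene values, in 0 cases with a call in either fit. None of the 14 exceeded 0.087 in size in the fit reported. For 40 °C against 37 °C, Becn1 had log2 fold changes of 0.0031 with RLE size factors, 0.0034 with DESeq2, 0.00092 with no filter and -0.028 to 0.021 without 1 library. Atg5 had -0.00010 with library totals, -0.0043 with the axis covariate and -0.031 to 0.072 without 1 library. With the axis covariate, Ctsl had 0.018, Gaa 0.017, Psap 0.0091 and Tfeb 0.0020. Without 1 library, Ctsl had -0.050 to 0.026, Gaa -0.11 to 0.030, Psap -0.11 to 0.014, Lamp2 -0.061 to 0.0013, Ctsb -0.11 to 0.0016 and Ctsz -0.052 to 0.0083. For 44 °C against 37 °C, Map1lc3a had -0.00042 with no filter, -0.0024 with only these groups and -0.039 to 0.041 without 1 library. Tfeb had 0.012 with the axis covariate and -0.22 to 0.021 without 1 library. For 44 °C against 40 °C, Tfeb had 0.010 with the axis covariate and -0.18 to 0.075 without 1 library. Atg7 had 0.017 with library totals, 0.015 with the axis covariate and -0.038 to 0.038 without 1 library. Ulk1 had -0.0049 with RLE, -0.0048 with DESeq2, -0.0046 with no filter, -0.0074 with only these groups, -0.0085 with the replicate block and -0.079 to 0.098 without 1 library.

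Extraction time, strand use and protein levels are not in these counts. The SEs did not follow level alone: for 44 °C against 37 °C they were 0.13 for Tfeb and 0.10 for Map1lc3a, near 10 to 14 CPM, and 0.11 for Gaa, Wipi1 and Ulk1, at higher CPM.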
